A study of Mus musculus with 8 samples.

Results

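The Clec9a and Dectin-1 lectin cluster is a row of 7 neighbouring genes on mouse chromosome 6, Clec12a, Clec12b, Clec1b, Clec9a, Clec1a, Clec7a and Olr1, that encode C-type lectin-like receptors. Open chromatin across it was read from ATAC-seq of spleen dendritic cells, in which the transposase Tn5 cuts accessible DNA and peaks of cuts are called in each library. Every peak summit in the GRCm38 (mm10) spans of these genes and in 20 kb on both sides was taken, which gave a window from 129329783 to 129527350 (197.57 kb). Neighbouring summits no more than 250 bp apart, from whichever library, were chained into a site. The window held 33 of the 112443 sites of the genome and 7 of its 21887 annotated protein-coding genes.

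The study compared conventional dendritic cells of type 2 (cDC2) and type 1 (cDC1) from mice with and without deletion of Hdac1, which encodes a histone deacetylase. The 8 libraries formed 4 groups of 2. KO cDC2 and KO cDC1 came from mice with floxed HDAC1 and Mx1-Cre, and WT cDC2 and WT cDC1 from mice with floxed HDAC1 alone. All mice, WT included, had been given poly I:C, and the cells were sorted 2 weeks later. Mx1-Cre is switched on by interferon and is not limited to dendritic cells. The sort took lineage-negative CD11c+MHCII+CD64- cells, of which XCR1-CD11b+ cells were cDC2 and XCR1+CD11b- cells were cDC1. None of the 7 receptors was named in this gate. The age of the mice was not given in the sources used here, and the labels do not state that libraries of a group came from separate animals. The p-values therefore measure the spread between these libraries, which may be technical.

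The cluster lies beside the natural killer gene complex, and its members are receptors of myeloid cells, platelets and endothelium. Clec9a (DNGR-1) binds actin filaments exposed by dead cells and is a hallmark receptor of cDC1, where it promotes cross-presentation of antigens from the dead cell. Clec7a (Dectin-1) binds fungal beta-glucans and Clec1b (CLEC-2) binds podoplanin. All of these 3 signal through a single tyrosine motif, the hemITAM, and the kinase Syk, which Dectin-1 links to Card9 and NF-kB. Clec12a and Clec12b carry an inhibitory ITIM motif that recruits phosphatases. Clec1a (MelLec) recognises fungal melanin, and Olr1 (LOX-1) is a scavenger receptor for oxidised low-density lipoprotein.

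The promoters that carry a summit are shown because the subsets differed at the starts of Clec9a and Clec12a. Sequences were taken from RefSeq promoters on GRCm38.p6, which run from 250 bases before to 50 bases after the gene start. The table matched 6 of the 7 members, all but Clec1a. In the Clec9a promoter, on the plus strand at chr6:129408612-129408911, capitals mark the 30 bases between the outermost of the 4 summits, all of them from cDC1 libraries.
Clec9a: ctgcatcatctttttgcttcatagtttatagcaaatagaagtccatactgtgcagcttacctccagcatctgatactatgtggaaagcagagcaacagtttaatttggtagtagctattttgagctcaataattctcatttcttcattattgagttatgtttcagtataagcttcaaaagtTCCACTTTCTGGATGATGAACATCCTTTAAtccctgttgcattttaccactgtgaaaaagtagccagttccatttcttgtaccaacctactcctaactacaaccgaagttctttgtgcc
In the promoters of Clec12a, on the plus strand at chr6:129349994-129350293, and of Clec7a, on the minus strand at chr6:129472730-129473029, capitals mark matches to 7 short motifs on either strand.
Clec12a: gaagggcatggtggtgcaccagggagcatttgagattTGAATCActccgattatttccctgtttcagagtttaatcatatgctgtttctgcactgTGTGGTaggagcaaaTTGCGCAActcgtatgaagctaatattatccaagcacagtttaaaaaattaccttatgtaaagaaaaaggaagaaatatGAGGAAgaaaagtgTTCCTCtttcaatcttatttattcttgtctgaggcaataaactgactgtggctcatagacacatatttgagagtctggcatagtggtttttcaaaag
Clec7a: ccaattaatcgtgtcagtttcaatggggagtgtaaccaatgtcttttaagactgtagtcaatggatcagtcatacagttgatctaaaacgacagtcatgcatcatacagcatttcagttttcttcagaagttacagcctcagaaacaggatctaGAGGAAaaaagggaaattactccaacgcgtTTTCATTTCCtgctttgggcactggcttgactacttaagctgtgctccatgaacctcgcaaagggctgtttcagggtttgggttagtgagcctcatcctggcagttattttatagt
The motifs were GAGGAA, the core bound by PU.1, found in 28.1% of all 32544 promoters of this length, GGAA and GAAA with 2 bases between them (ETS and IRF composite, 2.73%), GAAA and GAAA with 2 bases between them (interferon-response type, 3.45%), TGANTCA (AP-1, 7.79%), TTGCNNAA (C/EBP, 10.8%), TGTGGT (RUNX, 16.7%) and GGGA and TTTCC with 1 base between them (NF-kB, 0.415%). They were picked with these sequences in view. Clec12a held GAGGAA once on each strand, at positions -61 to -56 and -47 to -42 from the start. It also held the AP-1 letters at -213 to -207, the RUNX letters at -155 to -150 and the C/EBP letters at -140 to -133, where the match reads the same on both strands. Clec7a held GAGGAA at -96 to -91 and the ETS and IRF composite on the other strand at -66 to -57. None of the matches named here overlapped one of another motif. The Olr1 promoter held GAGGAA at -76 to -71 and the AP-1 letters at -60 to -54, and the Clec9a, Clec12b and Clec1b promoters held none of the 7. A match is a string of letters and not a measured binding site, and the lack of one speaks only of these letters in this window.

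The deposited lists held 69025 and 78296 summits in KO cDC2, 66609 and 61737 in WT cDC2, 74963 and 96031 in KO cDC1, and 76022 and 77585 in WT cDC1. Each list was shortened to its 61737 best-scoring summits, the length of the shortest. The authors' peak score at the end of the shortened list ranged over the libraries from 1.31 in replicate 2 of WT cDC2 to 7.21 in replicate 2 of KO cDC1. The lists hold no reads, so the depth is unknown and a missing summit means no called peak, not closed chromatin. Hdac1 itself had 1 to 2 summits in every library, which does not check the deletion. Summits at the cDC1 marker genes, a list that includes Clec9a, summed to 44 to 49 in cDC2 and 69 to 73 in cDC1, and those at the cDC2 markers to 42 to 46 in cDC2 and 31 to 37 in cDC1. Single genes did not all follow these sums. Of 8 cDC1 markers tested by number, 3 were called lower in cDC2, and of 7 cDC2 markers 2 were called higher, where 10.6% of all genes were called in either direction. Clec9a and Itgae went the other way, uncalled, at 0.44 and 0.18 on the scale of log2(summits + 1), and Batf3 was at -0.04. Of the gate's own markers, Xcr1 had 0 summits in every library. Itgam, the CD11b gene, had 7 and 7 in KO cDC2, 8 and 10 in WT cDC2, 8 and 9 in KO cDC1 and 10 and 7 in WT cDC1, and was not called.

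Across the whole window, cDC2 libraries had more summits than cDC1 libraries. KO cDC2 had 24 and 23 summits and WT cDC2 had 21 and 21, against 19 and 20 in KO cDC1 and 18 and 17 in WT cDC1. The subsets did not overlap, with a mean of 22.25 ± 1.5 in cDC2 and 18.5 ± 1.29 in cDC1 (SD, n = 4 each). The difference of 3.75 summits reached p = 0.0286 in a 2-sided exact permutation test, the smallest p that 4 against 4 libraries can give. It rests on the shortened lists. In the full deposited lists KO cDC2 had 27 and 29, WT cDC2 had 24 and 21, KO cDC1 had 22 and 29 and WT cDC1 had 24 and 25 summits, a difference of 0.25 (exact permutation p = 1.0). Among the 30868 best summits of each list cDC2 had on average 1.0 summit fewer. Without replicate 1 or replicate 2 of KO cDC2 the difference was 3.17 or 3.5 with an exact permutation p of 0.0571, above the threshold. The part that list length and score play in this count was not tested. How many other windows of the genome separate the subsets in this way was not counted.

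The summed rank of the summits, in contrast to their number, did not separate the subsets. A summit's rank score is log2 of the list length over its rank, so the last summit scores 0 and each added unit stands for a rank 2 times better. The summed score was 27.2 and 26.3 in KO cDC2, 29.5 and 27.2 in WT cDC2, 26.2 and 23.4 in KO cDC1, and 29.3 and 27.0 in WT cDC1. The subsets overlapped, and the mean difference of 1.04 had an exact permutation p of 0.371.

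**Figure D1:**
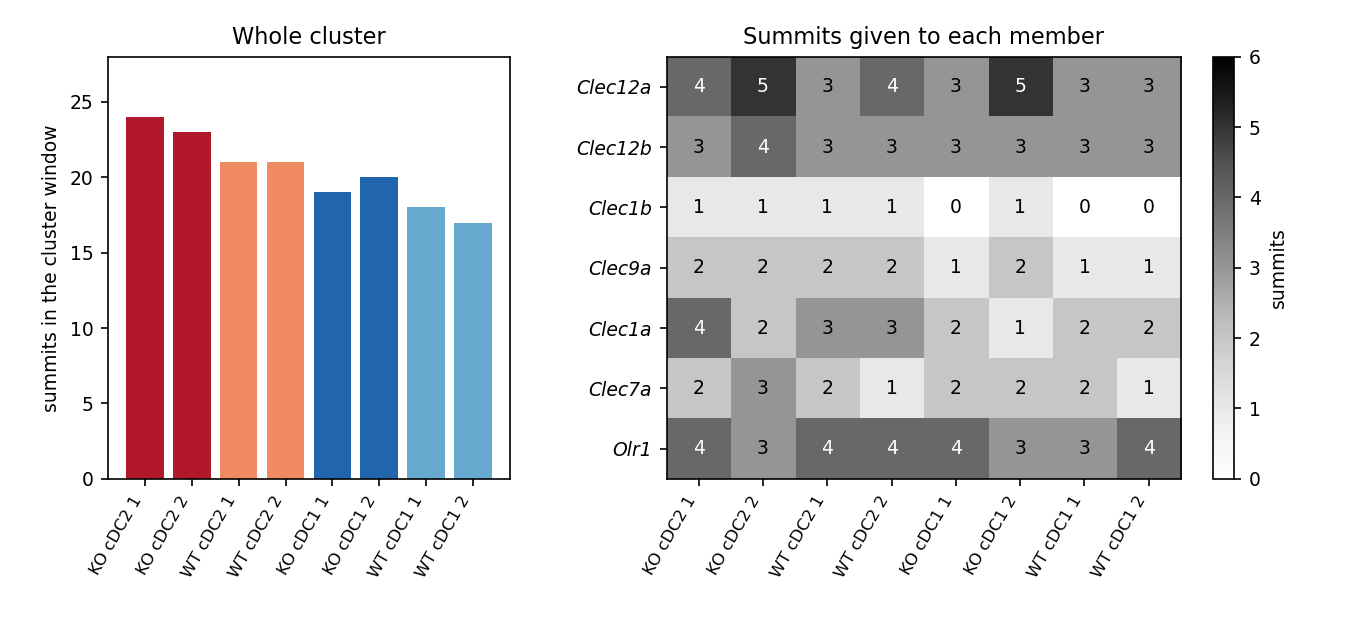
Left, bars give the number of summits in the cluster window in the shortened list of each library. Right, cells give the summits of these lists assigned to each member by the nearest gene span, at most 20 kb away. Groups run KO cDC2, WT cDC2, KO cDC1, WT cDC1. All 4 cDC2 libraries, at 21 to 24 summits, stand above the cDC1 libraries, at 17 to 20. In the full lists, not drawn here, the subsets overlap.

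Site by site, the cluster held differences in both directions, and they lay between the Clec12a start and the later part of the Clec9a span. Of the 33 sites, 12 had a summit in all 8 libraries, or 36.4%, against 26.4% of all sites. Another 6 sites had a summit in 1 library. The other 27 sites were tested with limma on the rank score, with 0 for no summit, in a fit across 85076 sites of the genome. In the comparison of cDC2 with cDC1, 7 of the 27 sites passed an adjusted p of 0.05, a share of 25.9%, against 25.6% of all tested sites. The share of the cluster is close to that of the genome, so what follows describes which sites they were. Scores were higher in cDC2 at 3 sites and lower at 4, where 12.0% and 13.7% of all tested sites were called. Fewer of the 7 stayed called with 1 library left out, and the share of all sites called in those fits was not set beside this. The differences kept their sign wherever the site was still tested. With 1 library left out, those at the 3 higher sites were 0.76 to 1.03 at the Clec12a start, 0.39 to 0.75 at 129406178 to 129406258, and 0.31 at 129366097 to 129366116. Of the 7, 3 had summits in 1 subset alone and so entered the test only through the subset where they are high, the other being set to 0. The median difference over the 27 sites was 0.20, and over all tested sites 0.03. At an unadjusted p under 0.05 there were 13 of the 27, against 40.1% of all tested sites. Sites near Clec1a, Clec7a and Olr1 were not called.

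**Figure D2:**
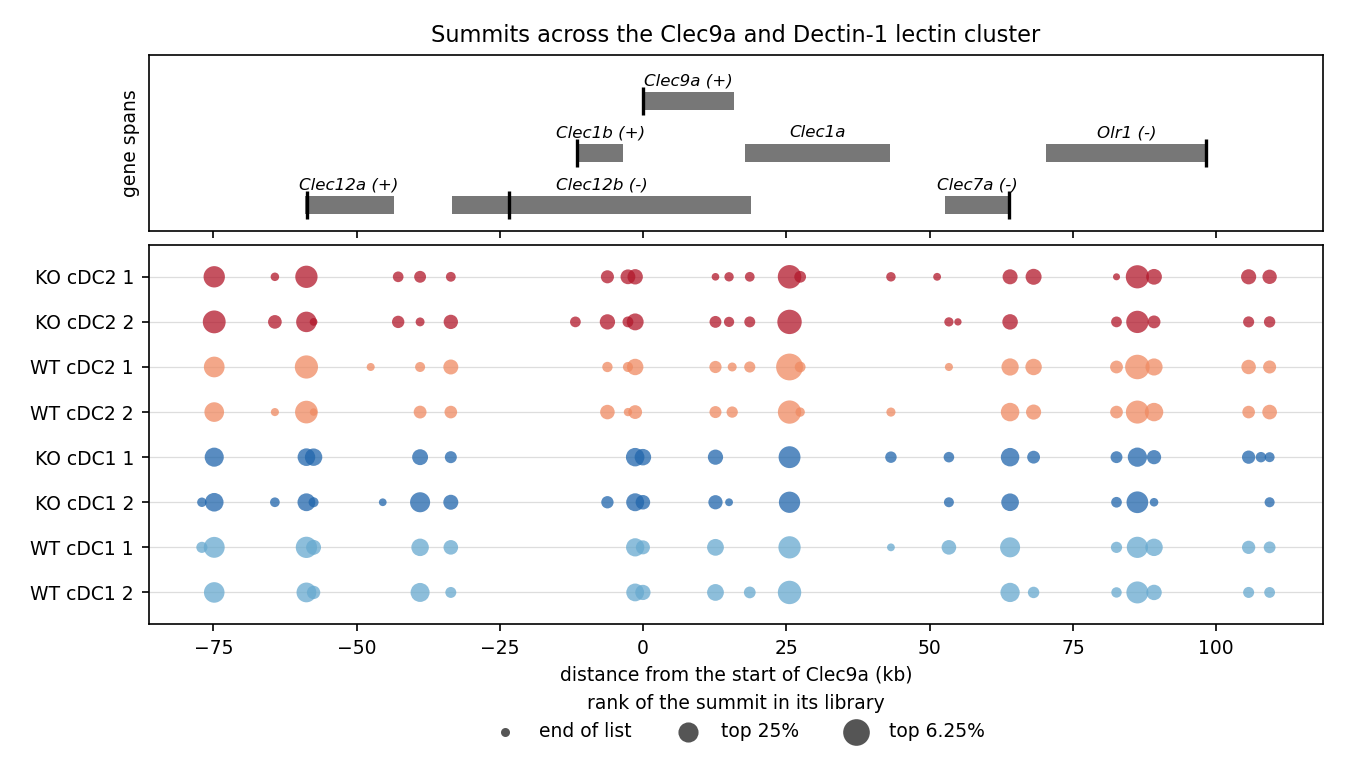
Gene spans of the 7 members (top; strand in brackets, black ticks at the RefSeq promoter table's gene starts) and summits of each library (bottom), placed by site at the distance from the Clec9a start in kb. Larger points rank better in their library. At 0 kb the 4 cDC1 libraries have a summit and the 4 cDC2 libraries have none, beside a site just upstream that all 8 share, while the sites in Clec1a and in Olr1 with the largest points are present in all 8.

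Clec9a set the subsets apart at its start and upstream of it. A site at 129408793 to 129408822, with its median summit 49 bases before the start, had a summit in 4 of 4 cDC1 libraries and in 0 of 4 cDC2 libraries. In KO cDC1 it ranked at 32.5% and 44.1% of the list, counted from the best, and in WT cDC1 at 47.4% and 39.7%. The cDC2 libraries had no summit there in the full deposited lists either. The rank score averaged 0 in cDC2 and 1.30 ± 0.24 in cDC1 (SD, n = 4 each), a difference of -1.30 (SE 0.19, limma adjusted p = 0.00475). The site entered the test only through cDC1, and both cDC2 groups were set to 0 and added no spread. The p-value is to be read with that limit. With every site tested, also those in 1 library, the adjusted p was 0.0104. Among 17492 genes with a promoter sequence, 45 had a promoter summit in all 4 cDC1 and no cDC2 libraries, or 0.257%. Of the marker genes listed for other checks, 3 were among these 45, namely Cd8a, which encodes a coreceptor chain carried by spleen cDC1, the transcription factor gene Klf4, listed as a cDC2 marker, and the platelet integrin gene Itga2b.

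Upstream of this start the picture turned round. A site at 129406178 to 129406258, with its median summit 2658 bases before the Clec9a start, had a summit in 4 of 4 cDC2 and 0 of 4 cDC1 libraries, in the full lists as well. It ranked at 42.6% and 70.4% in KO cDC2 and at 76.3% and 89.9% in WT cDC2. The rank score averaged 0.57 ± 0.47 in cDC2 and 0 in cDC1, a difference of 0.57 (SE 0.17, adjusted p = 0.0476). These are low ranks, the site entered the test only through cDC2, and with every site tested the adjusted p was 0.0920. The call was lost in 11 of 17 other settings, among them without any 1 of the WT cDC2, KO cDC1 or WT cDC1 libraries (adjusted p of 0.0795 to 0.123). Each of these patterns, present in all libraries of 1 subset and in no library of the other, was met by 1 of the 33 sites (3.03%). Over all sites of the genome, 2.42% were found in all cDC2 and no cDC1 libraries and 4.33% in all cDC1 and no cDC2 libraries.

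Between these sites lay one shared by all libraries, at 129407429 to 129407510 and 1396 bases before the start. It ranked at 39.0% and 30.4% in KO cDC2, 32.9% and 49.1% in WT cDC2, 23.0% and 25.4% in KO cDC1, and 24.1% and 26.1% in WT cDC1. Ranks were better in every cDC1 library than in any cDC2 library, yet the difference of -0.59 in rank score (SE 0.21) had an adjusted p of 0.0779 and was not called. Farther on, 12618 bases past the start and inside the Clec9a span, the site at 129421428 to 129421510 was called. It ranked at 94.96% and 62.7% in KO cDC2 and 60.2% and 61.7% in WT cDC2, against 39.9% and 46.1% in KO cDC1 and 31.1% and 31.2% in WT cDC1. The subsets did not overlap, and the rank score averaged 0.54 ± 0.31 in cDC2 and 1.45 ± 0.28 in cDC1 (SD, n = 4 each), a difference of -0.91 (SE 0.21, adjusted p = 0.0200). Without replicate 2 of WT cDC2, replicate 1 of WT cDC1 or replicate 2 of WT cDC1 the adjusted p was 0.0520, 0.0566 or 0.0545.

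At Clec9a the place of the summits differed more plainly than their number. Given to the nearest gene span, it had 2 summits in each cDC2 library, 1 and 2 in KO cDC1 and 1 and 1 in WT cDC1. On the scale of log2(summits + 1), the difference of 0.44 (SE 0.19) had an adjusted p of 0.172. This count leaves out the summits at its own start, because the annotated span of Clec12b runs across the whole of Clec9a and took them. A count by the nearest gene start takes in a site in the Clec1a span at 129427447 to 129427497, since Clec1a had no listed start. That site had summits in 3 cDC2 and 1 cDC1 libraries. Counted this way, Clec9a had 5 and 5 summits in KO cDC2, 5 and 4 in WT cDC2, 3 and 4 in KO cDC1 and 3 and 4 in WT cDC1 (difference 0.36, SE 0.20, adjusted p = 0.319), where 8.74% of genes were called. Over its span and 20 kb on both sides, which reach into Clec1b and Clec1a, it had 7.75 ± 0.50 in cDC2 and 4.75 ± 0.96 in cDC1 (SD, n = 4 each). That difference of 0.62 (SE 0.16) passed with an adjusted p of 0.0300, where 10.1% of genes were called. In bulk cells, a lower rank from fewer cells with an open site and one from less opening per cell cannot be told apart.

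**Figure D3:**
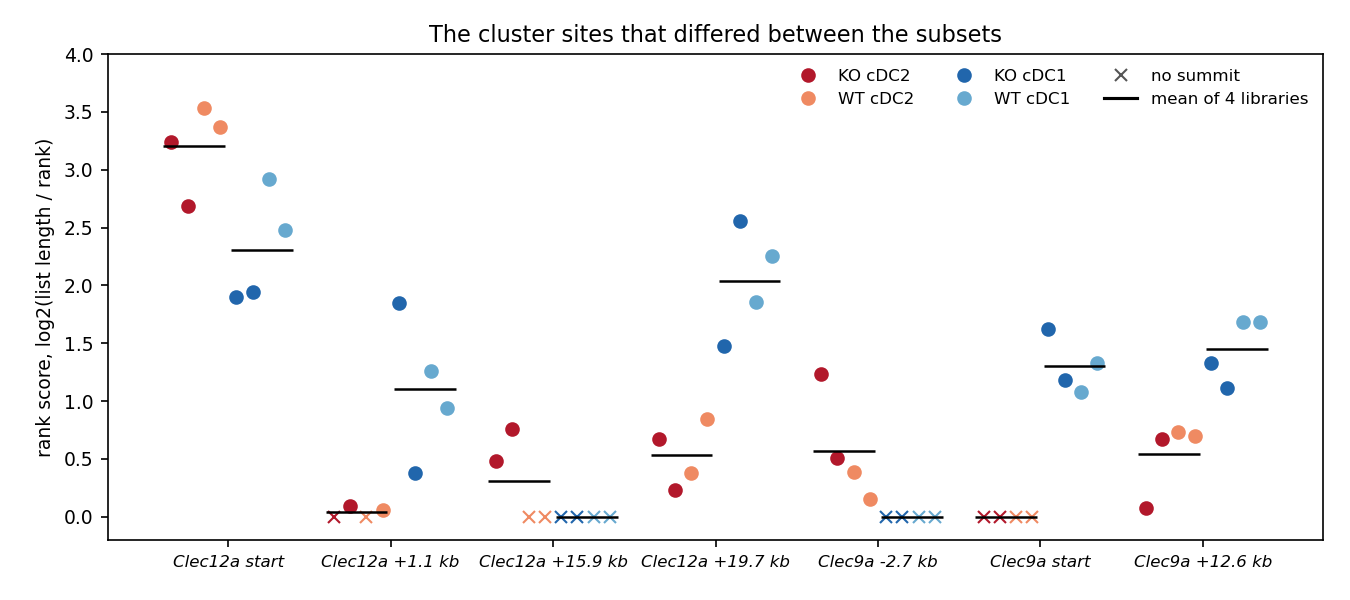
Rank score (y axis, log2 of list length over rank) in each library at the 7 cluster sites called between the subsets, named by Clec12a or Clec9a and the distance from its start. Points are libraries, crosses are libraries with no summit (score 0) and black lines are means of 4 libraries. At the Clec9a start, cDC2 is at 0 and cDC1 averages 1.30, and at the Clec12a start cDC2 averages 3.21 and cDC1 2.31.

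Clec7a, the Dectin-1 gene, was open at its start in both subsets. The site at 129472865 to 129472916 covered the GAGGAA match printed above. Its median summit lay 109 bases before 129472785, the nearer of 2 listed starts. The motif positions above count from the other, at 129472779. It ranked at 41.1% and 38.2% in KO cDC2, 28.8% and 22.9% in WT cDC2, 23.0% and 26.8% in KO cDC1, and 17.2% and 19.9% in WT cDC1. Ranks of WT cDC2 and KO cDC1 overlapped. The rank score averaged 1.65 ± 0.39 in cDC2 and 2.22 ± 0.27 in cDC1 (SD, n = 4 each), and the difference of -0.57 (SE 0.19, adjusted p = 0.0625) was not called. A promoter summit in all 8 libraries was found for 27.0% of genes, among them Clec7a and Clec12a. By number, Clec7a had 2 and 3 summits in KO cDC2, 2 and 1 in WT cDC2, 2 and 2 in KO cDC1, and 2 and 1 in WT cDC1 (difference 0.10, SE 0.21, adjusted p = 0.883).

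Clec1b, the podoplanin receptor gene best known from platelets, had no promoter summit in any shortened list. The 1 site given to it by span lay at 129402571 to 129402706. A second one, 262 bases before its start at 129397035, fell to the Clec12b span and had a summit in 1 shortened list, of KO cDC2, and in the full lists of 1 cDC2 and 3 cDC1 libraries. Summits of the full lists were counted within 250 bp of the site, a reach that takes in part of the Clec1b promoter. At the site in the span the summits ranked at 54.0% and 39.4% in KO cDC2 and 74.4% and 44.2% in WT cDC2. In the shortened cDC1 lists it was seen in 1 library, replicate 2 of KO cDC1, at 59.3%, and in the full lists in 2. The difference of 0.77 in rank score (SE 0.26) had an adjusted p of 0.0677 and was not called, but it passed in the full lists (1.13, adjusted p = 0.0290) and among sites found in at least 4 libraries (adjusted p = 0.0316). Clec1b did not reach the mean of 1 summit per library that the gene test needed. Summits at 5 platelet and megakaryocyte markers summed to 2 to 6 per cDC2 library and 5 to 6 per cDC1 library, and their part in the Clec1b values was not tested.

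Of the inhibitory receptors, Clec12a had an open start in both subsets with better ranks in cDC2. The site at 129350016 to 129350185, with its median summit 152 bases before the start, spanned the AP-1, RUNX and C/EBP letters printed above. It ranked at 10.6% and 15.5% in KO cDC2 and 8.61% and 9.70% in WT cDC2, against 26.9% and 26.0% in KO cDC1 and 13.2% and 18.0% in WT cDC1. Replicate 2 of KO cDC2 overlapped with replicate 1 of WT cDC1. The rank score averaged 3.21 ± 0.37 in cDC2 and 2.31 ± 0.48 in cDC1 (SD, n = 4 each), a difference of 0.90 (SE 0.22, adjusted p = 0.0239). The adjusted p was 0.05001 to 0.0711 with 1 library left out, except without replicate 2 of KO cDC2 or replicate 1 of WT cDC1, where the site stayed called.

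At 3 further sites around Clec12a a difference was called, and not all in the same direction as the start. A site at 129351272 to 129351377, 1098 bases past the start, had low-ranked summits in 2 of 4 cDC2 libraries, at 93.8% in KO cDC2 and 95.9% in WT cDC2. In cDC1 it ranked at 27.9% and 77.1% in KO libraries and 41.7% and 52.1% in WT libraries. The difference in rank score was -1.07 (SE 0.32, adjusted p = 0.0437), opposite in sign to that at the start. Without replicate 1 of KO cDC1 it was -0.70 and stayed called, as it did without replicate 2, and without any 1 of the other 6 the adjusted p was 0.0915 to 0.128. The site with the largest difference of the cluster, at 129369799 to 129370108, lay between Clec12a and Clec12b. It ranked at 62.7% and 85.3% in KO cDC2 and 76.8% and 55.8% in WT cDC2, against 35.9% and 17.0% in KO cDC1 and 27.5% and 20.9% in WT cDC1. The subsets did not overlap, with a rank score of 0.53 ± 0.28 in cDC2 and 2.04 ± 0.47 in cDC1 (SD, n = 4 each) and a difference of -1.51 (SE 0.29, adjusted p = 0.0113). The remaining called site, at 129366097 to 129366116 just past the Clec12a span, ranked at 71.7% and 59.1% in KO cDC2 and was absent from the shortened lists of the other 6 libraries. It entered the test only through that group, and 3 of the 4 groups had no spread, so its difference of 0.31 (SE 0.09, adjusted p = 0.0404) is a description of KO cDC2 and not a difference between the subsets. In the full lists 3 cDC2 and 2 cDC1 libraries had it (adjusted p = 0.106), and without any 1 of the WT cDC2, KO cDC1 or WT cDC1 libraries it was not called (adjusted p of 0.0799 to 0.0953). By number, Clec12a had 4 and 5 summits in KO cDC2, 3 and 4 in WT cDC2, 3 and 5 in KO cDC1 and 3 and 3 in WT cDC1, and its difference of 0.16 (SE 0.20, adjusted p = 0.762) was not called.

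Clec12b had no promoter summit in any shortened list, as was so for 48.0% of genes. Of the 5 sites given to it by span, 3 were nearest by start to Clec9a and are described above. Its count was 3 and 4 summits in KO cDC2, and 3 in each WT cDC2, KO cDC1 and WT cDC1 library (difference 0.08, SE 0.18, adjusted p = 0.907). The RefSeq promoter of Clec12b has its start at 129385503 on the minus strand, well inside the annotated span of 129375513 to 129427634. The upper end of that span was not searched as a promoter.

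Clec1a held the best-ranked site of the cluster, and it was open in every library. The site at 129434393 to 129434412, in the Clec1a span, ranked at 8.07% and 6.52% in KO cDC2, 3.50% and 8.46% in WT cDC2, 11.6% and 13.2% in KO cDC1, and 10.7% and 8.23% in WT cDC1. The rank score averaged 3.99 ± 0.59 in cDC2 and 3.21 ± 0.29 in cDC1 (SD, n = 4 each). The ranges overlapped at replicate 2 of WT cDC2 and of WT cDC1, and the difference of 0.78 (SE 0.31, adjusted p = 0.103) was not called. Without replicate 2 of WT cDC2 the difference passed, with an adjusted p of 0.0300. A neighbouring site at 129436206 to 129436272, picked out after its values were seen, had summits at 63.6% in KO cDC2 and 70.7% and 81.9% in WT cDC2. No cDC1 library had it, also in the full lists, and its difference of 0.36 (SE 0.15, adjusted p = 0.110) was not called. Clec1a had 4 and 2 summits in KO cDC2, 3 and 3 in WT cDC2, 2 and 1 in KO cDC1 and 2 and 2 in WT cDC1, a difference of 0.54 (SE 0.21) with an adjusted p of 0.117.

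Olr1 also had a highly ranked site that all libraries shared. At 129495086 to 129495123, 12055 bases past the Olr1 start, it ranked at 8.65% and 10.6% in KO cDC2 and 6.30% and 8.97% in WT cDC2. In cDC1 it ranked at 20.03% and 12.1% in KO libraries and 13.4% and 11.3% in WT libraries. Every cDC2 library ranked it better than any cDC1 library, with a difference of 0.71 in rank score (SE 0.25), but the adjusted p of 0.0753 missed the threshold. Olr1 had no promoter summit in the shortened lists, and its count of 4 and 3 summits in KO cDC2, 4 and 4 in WT cDC2, 4 and 3 in KO cDC1 and 3 and 4 in WT cDC1 differed by 0.08 (SE 0.19, adjusted p = 0.915).

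By the number of summits per gene, none of the 6 members tested was called between the subsets, where 10.6% of 13860 genes were. At an unadjusted p under 0.05 there were 2, Clec9a and Clec1a, against 23.4% of all genes. In the other settings tried the count was 0 or 1. The member called was Clec9a over its span and 20 kb, Clec1a without replicate 2 of KO cDC2 (difference 0.72, adjusted p = 0.0252), and Clec12a among the 30868 best summits, where its difference was -0.65 (adjusted p = 0.0208).

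Between KO and WT, no difference was called in the cluster. With KO set against WT over both subsets, 0 of the 27 sites passed, and 0.0% of the 85076 sites did. At an unadjusted p under 0.05 there were 5 of the 27 cluster sites and 9459 of all sites (11.1%). Within cDC2 0 cluster sites passed, against 0.0599% of all sites (51), and within cDC1 0 passed, against 0.00353% (3). In these the unadjusted count was 4 of 27 cluster sites in cDC2, against 9.12% of all sites, and 2 in cDC1, against 8.73%. A test of whether the genotype effect differed between cDC2 and cDC1 called 0 sites, with 2 of 27 cluster sites and 7.22% of all sites at an unadjusted p under 0.05. Scoring presence alone gave 2 called cluster sites over both subsets, where 6.97% of all sites were called, 2 within cDC2 (3.53% of all sites) and 2 for the difference between effects (6.85%). Each of these pairs was 1 higher and 1 lower, and each of the other settings gave 0. Presence leaves no spread where the libraries agree within every group. A call at such a site follows from that pattern alone and is not evidence of a genotype difference, in the cluster or over all sites. No site was found in all KO and no WT libraries, or the reverse, where 0.0836% and 0.0694% of all sites were.

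The sites with the smallest genotype p-values did not favour a single gene. At the Clec12a start, both KO libraries ranked worse than both WT libraries within each subset, with a rank score of 2.44 ± 0.64 in KO and 3.08 ± 0.48 in WT (SD, n = 4 each). That difference of -0.63 (SE 0.22) had an adjusted p of 0.381. The Clec7a start had the same order within each subset, at 1.67 ± 0.40 in KO and 2.20 ± 0.32 in WT, with a difference of -0.53 (SE 0.19, adjusted p = 0.393). A site inside Olr1 at 129497974 to 129498082 ranked at 36.9% and 55.6% in KO cDC2 and 29.4% and 23.2% in WT cDC2, and at 46.3% and 87.8% in KO cDC1 and 27.9% and 38.6% in WT cDC1. Its difference of -0.88 (SE 0.28, adjusted p = 0.361) was the largest of the cluster in this comparison. The other 2 sites, near the end of Clec12a and in Clec9a, had summits in the shortened lists of KO libraries alone, in 2 and 3 of 4, and entered the test only through them. In the full lists the one in Clec9a was found in 2 cDC2 and 4 of 4 cDC1 libraries, both WT cDC1 libraries included. At the Clec9a start, KO averaged 0.70 ± 0.83 and WT 0.60 ± 0.70 over both subsets, a difference of 0.10 (SE 0.19, adjusted p = 0.875). In both genotypes the site was absent from cDC2 and present in cDC1.

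**Figure D4:**
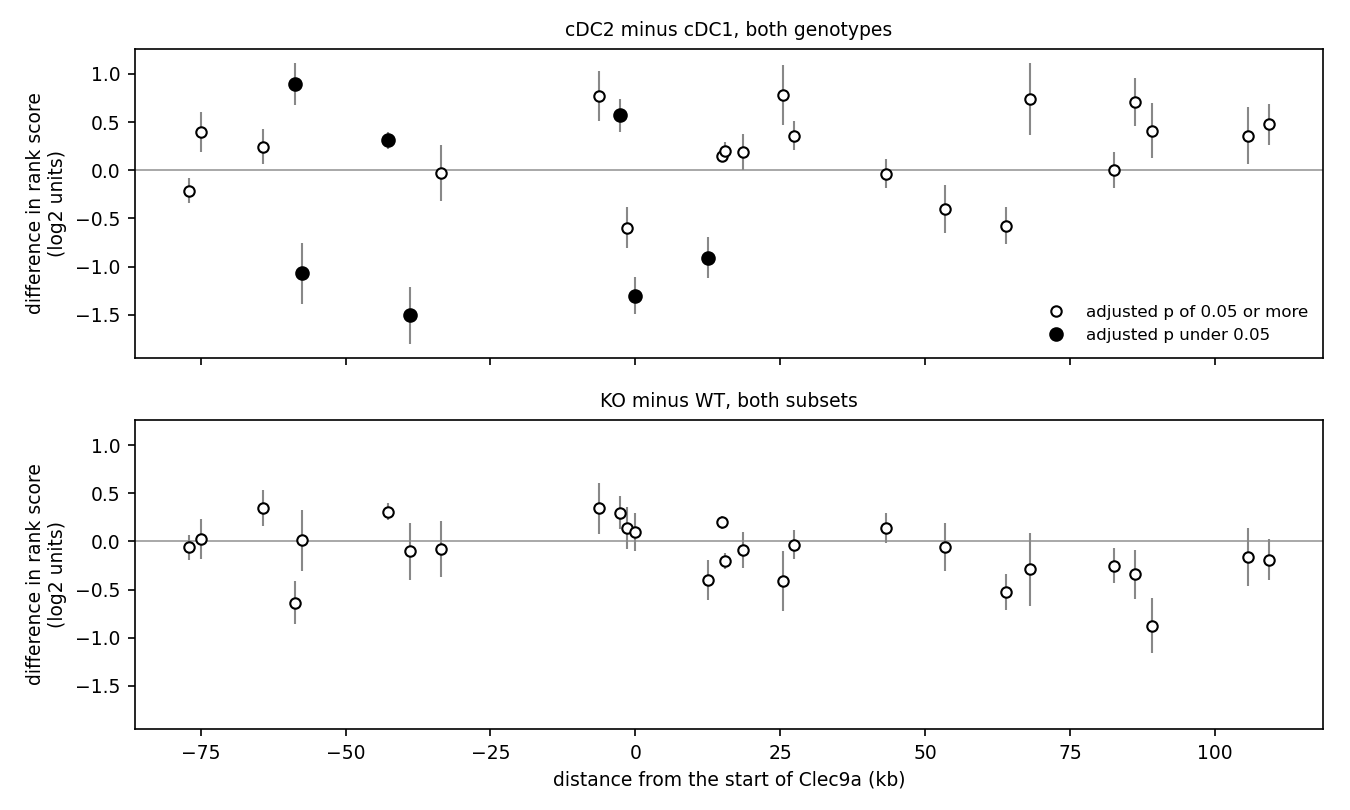
Difference in rank score (y axis, log2 units) with its standard error at the 27 tested sites, by distance from the Clec9a start in kb, for cDC2 minus cDC1 (top) and KO minus WT (bottom). Filled points passed an adjusted p of 0.05. The top panel has 7 filled points, from -1.51 to 0.90, and the bottom panel has none.

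By number, the window held more summits in KO than in WT libraries of the same subset, with 21.5 ± 2.38 in KO and 19.25 ± 2.06 in WT (SD, n = 4 each). The difference of 2.25 had a p of 0.0556 in the exact permutation test within subsets, the smallest it can give, so no difference could pass 0.05. In the full lists it was 3.25 (exact permutation p = 0.222), and among the 30868 best it was -0.50. None of the 6 members tested was called for genotype by number, where 0.0649% of genes were, and none had an unadjusted p under 0.05.

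Among the genes of the signalling path behind these receptors, 1 was called by number of summits. Of 20 listed genes, from Syk and Card9 to the phosphatases Ptpn6, Ptpn11 and Inpp5d, all were tested, 1 was higher in cDC2 and 0 were lower, where 10.6% of all genes were called in either direction. The one called was Card9, the adaptor that links Syk to NF-kB, with 3 and 3 summits in KO cDC2, 2 and 1 in WT cDC2 and 1 in every cDC1 library. Its difference was 0.65 (SE 0.19, adjusted p = 0.0423), and replicate 2 of WT cDC2 overlapped with cDC1. The call was lost without any 1 library other than replicate 2 of WT cDC2 (adjusted p of 0.0537 to 0.182), and by summed rank score the difference was -0.02. Syk had 15 and 15 summits in KO cDC2, 13 and 9 in WT cDC2, 10 and 12 in KO cDC1 and 9 and 10 in WT cDC1, a difference of 0.30 (SE 0.19, adjusted p = 0.384). The median difference of the list was 0.05 and that of all genes 0. Of 18 listed genes of the neighbouring natural killer complex, 16 were tested and 1 was called, against the same 10.6% of all genes. Klrb1a, an NK cell receptor gene, was higher in cDC2 (difference 0.75, SE 0.24, adjusted p = 0.0492). It had 3 and 3 summits in KO cDC2, 4 and 3 in WT cDC2, 1 and 4 in KO cDC1 and 1 and 1 in WT cDC1. Replicate 2 of KO cDC1 overlapped with cDC2, and without replicate 1 of KO cDC1 the difference was 0.42 (adjusted p = 0.347). In the full lists it was 0.41 (adjusted p = 0.285), and with plain variance the adjusted p was 0.251. The list's median was 0.15. Neither list had a gene called for genotype.

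The genes whose summed rank scores followed Clec9a most closely over the 8 libraries lay mostly on other chromosomes. They were Suclg1 on chromosome 6 (Pearson r = 0.975), Arhgap32 on chromosome 9 (r = 0.974), Adgrg7 on chromosome 16 (r = 0.973), Pip5k1b on chromosome 19 (r = 0.969) and Eml4 on chromosome 17 (r = 0.965), the highest of 13859 genes compared. The libraries share their subset, list and depth across genes, so these values describe likeness in these 8 libraries only. For Clec9a this sum was 0.36 and 1.08 in KO cDC2, 0.97 and 1.27 in WT cDC2, 1.33 and 1.22 in KO cDC1 and 1.69 and 1.68 in WT cDC1, without the summits at its own start.

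None of the remaining sites was called. The largest difference among them was 0.74 (SE 0.38, adjusted p = 0.184), at 129476963 to 129477027 and 4211 bases before the Clec7a start at 129472785. This site ranked at 35.4% in KO cDC2, 33.0% and 40.6% in WT cDC2, 55.7% in KO cDC1 and 65.9% in WT cDC1, and the shortened lists of the other 3 libraries had no summit there, where the full lists of 4 cDC2 and 3 cDC1 libraries did. Of the 12 sites in all 8 libraries, 5 are not described above one by one for the subsets, and their differences between cDC2 and cDC1 lay from -0.03 to 0.48 with none called. Best among them was a site at 129333976 to 129334042, near the neighbouring gene Clec2m, at 9.35% to 18.5% in cDC2 and 14.3% to 22.6% in cDC1. By presence in any number of libraries, 21 sites were seen in both subsets, 8 in cDC2 libraries alone and 4 in cDC1 libraries alone. The counts for 1 subset alone include the 6 sites seen in 1 library, and their share over all sites was not counted. In the full lists some of the 8 had cDC1 summits too. The site past the Clec12a span had them in 2 cDC1 libraries, that at 129397035 in 3 and that at 129424392 to 129424403 in 1. Of the 33 sites, 20 lay inside the span of a member and 13 outside. The annotation used gives spans without exons, so exonic and intronic positions are not given.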

How the data were processed

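Per the labels, the authors made ATAC-seq libraries by Tn5 tagmentation for 30 minutes. Per the submitters' processing notes they used Bowtie2, SAMtools, MACS2 and MultiQC with GRCm38 (mm10). Versions, filters and peak settings are not given in the sources used here. The authors deposited a summit list per library with a −log10 p-type score per peak. The score is the authors' own and was used only to rank summits within a library.

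From these lists, the best 61737 summits per library were kept. Sites were chained within 250 bp and tested where at least 2 of 8 libraries had a summit. Site rank scores were fitted with limma 3.58.1 (trend) in R 4.3.3, with 4 group means, 5 contrasts and Benjamini-Hochberg adjustment. Genes were fitted on log2(summits + 1) with the rounding variance added, each summit given to the nearest RefSeq span of a protein-coding gene within 20 kb and to the shorter gene where spans overlap. A mean of 1 summit per library was required. Single values had exact permutation tests. The fits were run on simulated data with independent normal noise at the sites. Site changes were planted only where the mean rank score was high, so calls at sites absent from a subset were not checked. No summit had the same position and score in any pair of libraries.

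All members are named. Sites are described where called in any contrast, where they rank best among those of a member, or where they were found in all libraries of one side and none of the other. Members and lists were chosen with earlier results of these data known, and the variance treatment was chosen in an earlier analysis after seeing the data. Alternatives covered list length, window, chaining, filters, variance, scoring, gene assignment, libraries left out and a replicate block.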

Additional observations from a re-analysis of the deposited data

Results flagged for a closer look

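Of 42 groups of 4 libraries checked, 9 had a library far from the other 3, where chance flags about 1 in 20 groups of continuous values. With whole numbers that rate does not apply and any difference from 3 equal values is picked out. The 7 of these 9 that are summit counts rest on a step of 1 or 2 summits.

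Replicate 2 of KO cDC1, the library with the longest deposited list (96031 summits), was the one apart in 5 of them. Its rank score at the Clec1b site was 0.753, against 0 in the other cDC1 libraries. It had 5 summits at Clec12a, against 3 in each of the others, 1 at Clec1b against 0, 2 at Clec9a against 1, and 1 at Clec1a against 2. The Clec1b count and the rank score at the Clec1b site rest on the same single summit.

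Replicate 1 of KO cDC2 had a rank score of 0.0746 at the site inside Clec9a, against 0.674 to 0.732 in the other cDC2 libraries. Replicate 2 of KO cDC2 had 4 summits at Clec12b, against 3 in each of the others, and 3 at Olr1 against 4. Replicate 2 of WT cDC1 had 1 summit at Clec7a, against 2 in the other cDC1 libraries. No cause of these values was tested.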

How the results depend on the processing

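The excess of 3.75 window summits in cDC2 fell to 0.25 in the full lists (exact permutation p = 1.0), to 2.75 for spans alone (p = 0.0857, exact permutation) and to -1.0 among the 30868 best summits. With the replicate block it stayed at 3.75, where the sign-flip p cannot go below 0.125. With 1 library left out it ranged from 3.17 to 4.25. The genotype difference was -0.50 among those best summits. The summed rank score differed by -0.17 with 5 kb on both sides.

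Of the cluster sites, 7 were called between the subsets. There were 3 among the best summits, 4 by presence alone, 6 with the replicate block (sites 2658 bases before Clec9a and past the Clec12a span not called, at adjusted p of 0.0552 and 0.143, and the Clec1b site called, at 0.0404) and 3 to 6 with 1 library left out. Either WT cDC2 or either WT cDC1 library left out gave 3, and either KO cDC1 library gave 4. For genotype, presence alone gave 2 over both subsets, 2 in cDC2 and 2 for the difference between effects. Presence leaves no spread where libraries agree within every group, so calls at such sites follow from the pattern alone. The Clec9a start lost its call among the best summits alone (adjusted p = 0.0845), and with 1 library left out its limma adjusted p ranged from 0.0106 to 0.0201. The site between Clec12a and Clec12b lost its call by presence alone, being present in all libraries.

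Members called by number went from 0 to 1 among the best summits, over span and 20 kb, and without replicate 2 of KO cDC2. Uncalled directions turned for Clec12b (-0.29 in the full lists, -0.35 among the best summits, -0.41 by summed rank score), Clec9a (-0.10 in the full lists, -0.39 by summed rank score) and Clec7a (-0.15, -0.41, and -0.042 without replicate 1 of WT cDC2 or replicate 2 of WT cDC1). That of Card9 was -0.021 by summed rank score. For Clec12a they were -0.65 among the best summits, which was called, and -0.27 by summed rank score. The causes were not tested.

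Replicate numbers are shared by the groups, and whether they pair libraries is not known. Deviations of same-numbered libraries correlated at 0.131 and 0.0477 between subsets and at 0.0079 and 0.0014 between genotypes, which neither shows nor excludes pairing. Depth is unknown, and 2 libraries per group limit every call.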
